A study of Homo sapiens with 9 samples.

Results

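ATP-binding cassette (ABC) proteins are defined by a nucleotide-binding domain that hydrolyses ATP. Most are membrane transporters: they export drugs and conjugated metabolites from the cell, move lipids and sterols across membranes, or serve organelles such as the peroxisome, the lysosome and the mitochondrion. The ABCE and ABCF proteins lack membrane-spanning parts and act on the ribosome instead. In tumor cells the family is best known for drug efflux.

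The genes described here are 44 protein-coding genes of subfamilies ABCA to ABCG, of 58735 genes in the deposited table, chosen by gene symbol and biotype. Counts and sums cover all 44. The RNA came from MIA PaCa-2, an established human pancreatic cancer cell line labelled as wild type, treated for 24-h. There were 3 groups of 3 libraries: 1 μM SCH772984, an ERK1/2 inhibitor; 1 μM compound 1, a dual inhibitor of TBK1 and IKKε; and 0.1% DMSO as vehicle control. All groups were grown in the same medium with serum, and nothing in the labels says that the replicates were separate cultures, so p-values measure only the spread between these libraries, which may be technical. Whether a lower level reflects less RNA per cell or fewer cells of a kind cannot be told apart in bulk RNA.

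Levels below are CPM, read counts brought to a common library size with trimmed mean of M-values (TMM) factors, and different genes are compared only as CPM per kilobase of exon. Library totals were 9464432 to 13887859 counts. A gene was called higher or lower when edgeR's quasi-likelihood test, adjusted over all genes tested, gave a p under 0.05. Of the MAPK output genes, transcripts that follow ERK activity, 13 of 13 tested were lower with SCH772984 (against 35.5% of all genes). DUSP5, DUSP6 and ETV4 had at most 8, 1 and 10 counts per SCH772984 library and passed the count filter only through the DMSO libraries. They could hardly have been other than lower, so this count is a description. Compound 1 replicate 1 stood farther from the other libraries of its group (chi-square per degree of freedom 10.1 and 7.61) than those did from each other (2.66). The keratin genes KRT8, KRT18 and KRT19 and the mesenchymal gene VIM were expressed, while EPCAM had no count and KRT7 and CDH1 stayed between 0 and 5 counts. These epithelial and carcinoma markers (7 genes) summed to between 5863 and 6242 CPM with DMSO, between 5438 and 6615 CPM with compound 1 and between 3204 and 3506 CPM with SCH772984, where KRT8, KRT18 and VIM were lower and KRT19 was not called. Markers of other cell types (10 genes, 4 of them without a count) summed to between 11.1 and 11.7 CPM with DMSO, between 11.3 and 14.3 CPM with compound 1 and between 50.3 and 59.5 CPM with SCH772984, where COL1A1, COL3A1 and PDGFRB were higher and CDH5 was lower. COL1A1 and PDGFRB, with at most 4 and 2 counts per DMSO library, passed the filter only through the SCH772984 libraries. CDH5, with at most 4 counts per SCH772984 library, passed it only through the DMSO libraries. The filter thus all but fixed the directions of COL1A1, PDGFRB and CDH5. The part of either marker list in the results below was not tested, and PTPRC, PRSS1, CPA1 and INS, which mark leukocytes, acinar cells and beta cells, were at 0 counts in all 9 libraries.

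Many of these transporters were not transcribed at a detectable level. ABCB11, ABCA13, ABCC9 and ABCC12 had no count in any library, which at these depths allows up to 3 counts per library. Another 8 members had between 1 and 10 counts over all 9 libraries. Among these was ABCB1, the multidrug exporter P-glycoprotein, with 0 counts in 8 libraries and 1 count in SCH772984 replicate 3. ABCB5, ABCB4, ABCD2, ABCG5, ABCA9, ABCA12 and ABCC11 made up the rest. ABCG8 and ABCA6 were also too low, so that 14 members were tested against DMSO with neither inhibitor. Of the others, 29 were tested with SCH772984 and 27 with compound 1. ABCG4, ABCC6 and ABCC8 were tested against DMSO only with SCH772984 and passed the filter only through the SCH772984 libraries, so they could hardly have been other than higher. Their values are a description and no test of them is given. ABCA4, the retinoid transporter of the photoreceptor, was tested with compound 1 but not with SCH772984 against DMSO.

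In DMSO, the genes with the highest level per kilobase were those that act on the ribosome and in the mitochondrion. ABCF1, which takes part in translation initiation, had 39.6 ± 2.44 CPM per kilobase (SD, n = 3). ABCB10, an inner mitochondrial membrane protein linked to haem synthesis, had 28.9 ± 0.40 and ABCE1, which splits terminated ribosomes into subunits, had 25.4 ± 0.62 CPM per kilobase. Among drug exporters, ABCC2 (MRP2) at 18.3 ± 0.77 and ABCC1 (MRP1) at 17.5 ± 0.38 CPM per kilobase were the highest and differed by about their spread. ABCA2, an endolysosomal lipid transporter, was the highest lipid member at 9.5 ± 0.39, just above the lamellar body phospholipid transporter ABCA3 at 9.11 ± 0.65 CPM per kilobase. ABCD3, the peroxisomal transporter PMP70, had 11.2 ± 0.24 and ABCD4, the lysosomal cobalamin transporter, had 3.49 ± 0.31 CPM per kilobase.

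**Figure D1:**
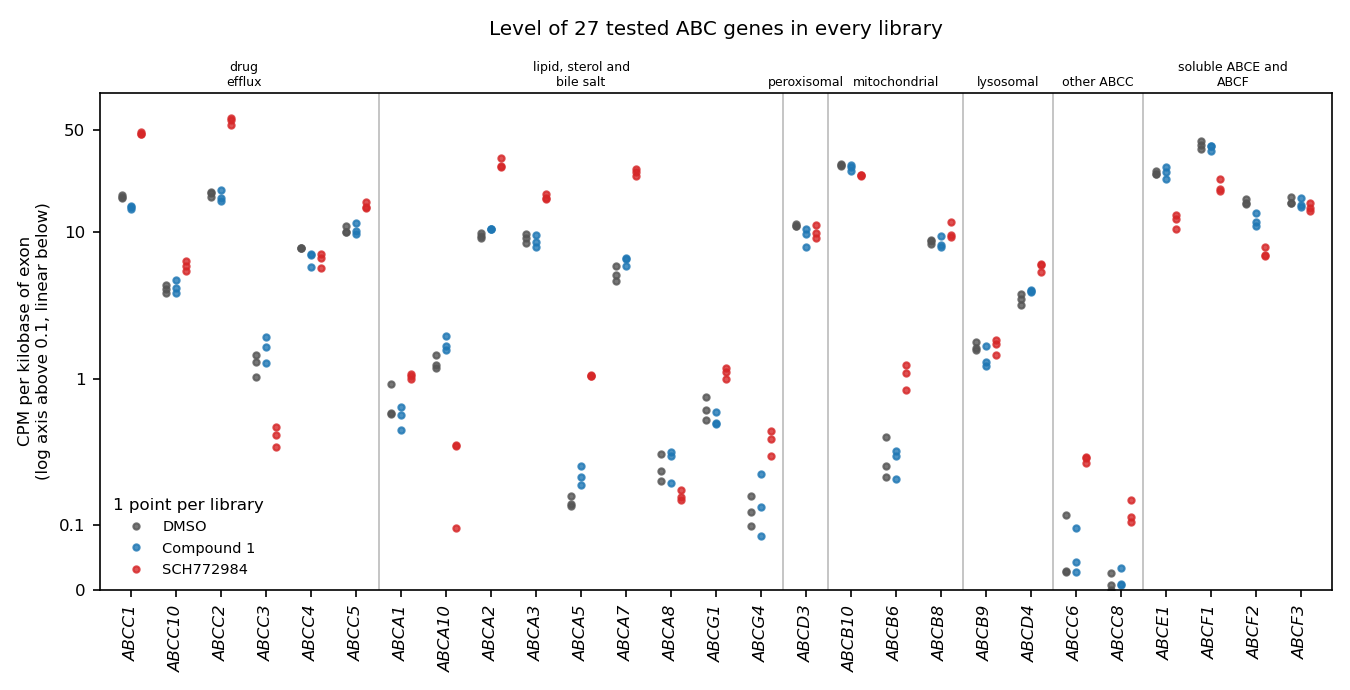
Level of 27 of the 29 ABC genes tested with SCH772984 against DMSO, in CPM per kilobase of exon (vertical axis, logarithmic above 0.1 and linear below), with 1 point per library and genes grouped by role. ABCC1 and ABCC2 stand above all DMSO and compound 1 libraries with SCH772984, while ABCE1, ABCF1 and ABCF2 stand below them.

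With SCH772984, 18 of the 29 members tested were higher (62.1%, against 37.2% of all 13834 genes tested) and 7 were lower (24.1%, against 35.5% of all genes). The median log2 fold change was 0.54 over the members and 0.03 over all genes. Changes of at least 2-fold were called for 9 members upward (18.2% of all genes) and 4 downward (10.6% of all genes). Without ABCG4, ABCC6 and ABCC8, 15 of 26 members were higher (57.7%) and 7 were lower (26.9%), 6 and 4 of them by at least 2-fold, and the median was 0.43, a count that, like the others without these genes, was added after the data were seen. Of the 7 lower genes, 3 encode ribosome-associated proteins. ABCF3, ABCD3, ABCB9 and ABCA8 were not called. All 3 SCH772984 libraries lay above all 3 DMSO libraries for 18 of the members tested (38% of all genes) and below them for 8 (36.4% of all genes). Without ABCG4, ABCC6 and ABCC8 these counts were 15 and 8 of 26.

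The summed level of the 44 genes went from between 1630 and 1657 CPM per DMSO library to between 2475 and 2571 CPM with SCH772984, and stood between 1581 and 1616 CPM with compound 1. Drug efflux genes took 30.3% to 31.4% of these reads with DMSO and 42.8% to 44.2% with SCH772984. Lipid, sterol and bile salt transporters went from between 14.8% and 16% to between 28.1% and 29.9%. The soluble ABCE and ABCF genes went the other way, from between 28.9% and 31.1% to between 10.2% and 12.1%. The ranges of the DMSO and SCH772984 libraries did not overlap for any of these 3 shares. These sums are given as a description, without a test.

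**Figure D2:**
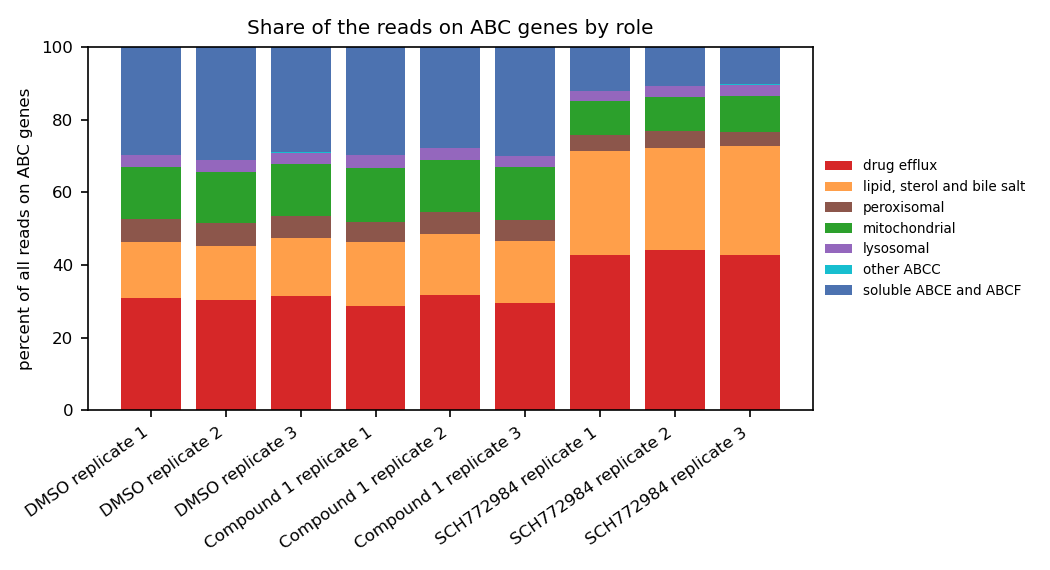
Percent of all reads on the 44 ABC genes that fell on each role (vertical axis), in each of the 9 libraries (horizontal axis), as stacked bars. The drug efflux and lipid segments are larger and the soluble ABCE and ABCF segment is smaller in the 3 SCH772984 libraries than in the other 6.

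The 6 drug efflux members tested here belong to the ABCC subfamily, which holds the multidrug resistance-associated proteins, and with SCH772984 4 of them were higher (66.7%, against 37.2% of all genes) and 2 lower (33.3%, against 35.5%). ABCC2 (chr10:99782640-99852594), the apical exporter of conjugated bilirubin and drugs, had 145, 136 and 147 CPM in the DMSO libraries, 128, 152 and 135 CPM with compound 1 and 428, 474 and 460 CPM with SCH772984. All 3 SCH772984 libraries lay above the other 6, at a log2 fold change of 1.66 ± 0.06 against DMSO (SE; edgeR's quasi-likelihood test, adjusted p = 1.65e-26), or 3.17-fold. ABCC1 (chr16:15949577-16143074), which exports glutathione conjugates and several anticancer drugs, had 136, 132 and 130 CPM with DMSO and 355, 358 and 368 CPM with SCH772984. In the compound 1 libraries ABCC1 stood at 109, 113 and 115 CPM. With SCH772984 its log2 fold change was 1.44 ± 0.06 (SE; edgeR, adjusted p = 1.46e-24), and the groups did not overlap.

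ABCC1 alone took 7.93% to 8.18% of the reads on the 44 genes with DMSO and 14.1% to 14.3% with SCH772984, and ABCC2 took 8.35% to 8.99% and 17.3% to 18.6%. The rises of ABCC5 (MRP5), an exporter of cyclic nucleotides and nucleotide analogs, and of ABCC10 (MRP7), which transports taxanes, were smaller. Their log2 fold changes were 0.54 ± 0.07 and 0.53 ± 0.09 (SE).

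ABCC3 and ABCC4, the other drug efflux members tested, fell. ABCC3 (MRP3, chr17:50634777-50692252), a basolateral exporter of glucuronides and bile acids, had 14.0, 9.92 and 12.6 CPM with DMSO, 15.8, 18.4 and 12.2 CPM with compound 1 and 4.48, 3.28 and 3.95 CPM with SCH772984. Every SCH772984 library lay below the lowest of the others, and the log2 fold change against DMSO was -1.64 ± 0.19 (SE; edgeR, adjusted p = 1.45e-10). ABCC4 (MRP4), which exports cyclic AMP and prostaglandins, fell by 0.28 ± 0.08 on the log2 scale (edgeR, adjusted p = 0.00209), a call that was lost when libraries were scaled by their totals alone (log2 fold change -0.11, adjusted p = 0.232).

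**Figure D3:**
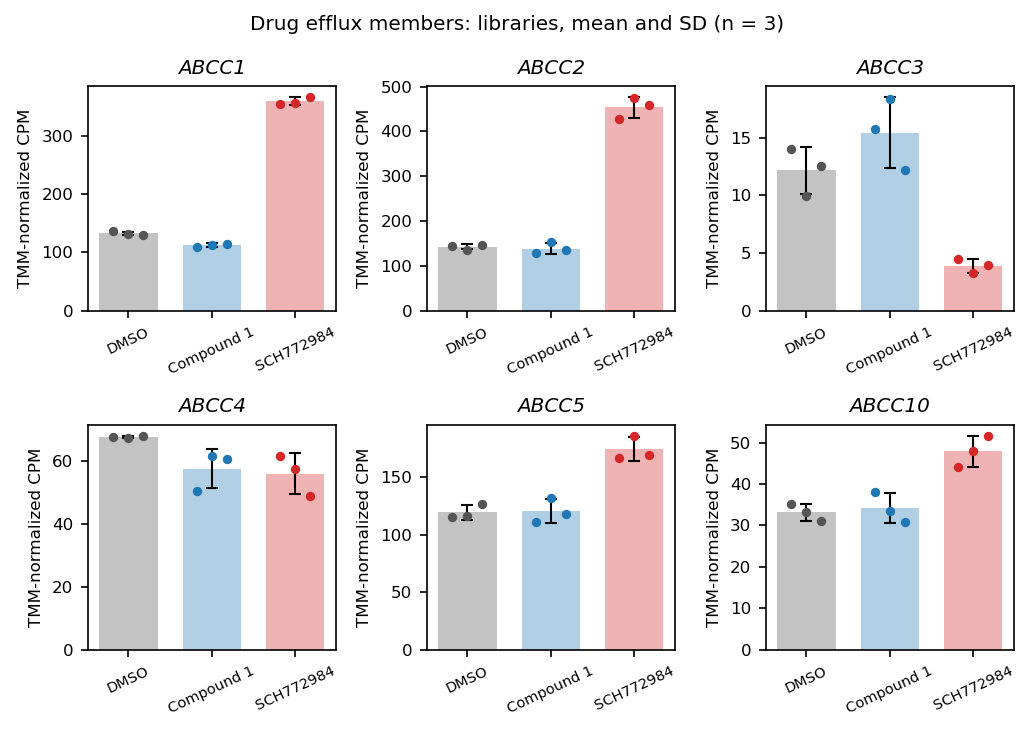
TMM-normalized CPM (vertical axes, from 0) of the 6 tested drug efflux genes in each group, with points for libraries, bars for means and whiskers for SD (n = 3). ABCC1 and ABCC2 rise with SCH772984 to between 355 and 474 CPM while ABCC3 falls to between 3.28 and 4.48 CPM.

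Of the 9 lipid, sterol and bile salt transporters tested with SCH772984, 7 were higher (77.8%, against 37.2% of all genes) and 1 was lower (11.1%, against 35.5%). Without ABCG4, 6 of 8 were higher (75%) and 1 lower (12.5%). ABCA7 (chr19:1040101-1065572), a phospholipid exporter and a risk gene of Alzheimer's disease, had 43.0, 39.0 and 49.5 CPM with DMSO, 55.3, 56.3 and 49.6 CPM with compound 1 and 203, 215 and 227 CPM with SCH772984. Its SCH772984 libraries were far from all others, and the log2 fold change against DMSO was 2.29 ± 0.08 (SE; edgeR, adjusted p = 2.17e-28). ABCA2 (chr9:137007227-137028922) had 109, 105 and 114 CPM with DMSO, 121, 121 and 122 CPM with compound 1 and 323, 327 and 371 CPM with SCH772984. ABCA2 thus rose 3.10-fold without overlap between groups (log2 fold change 1.63 ± 0.07, SE; edgeR, adjusted p = 2.01e-25).

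ABCA3 and the cholesterol efflux genes ABCG1 and ABCA1 rose by smaller amounts. The log2 fold change was 0.93 ± 0.07 for ABCA3, 0.82 ± 0.21 for ABCG1, which passes cholesterol to high-density lipoprotein, and 0.59 ± 0.17 for ABCA1, which loads apolipoprotein A-I (SE; all called by edgeR). ABCG4, a relative of ABCG1 found mainly in the nervous system, was scarce: it had 6, 7 and 9 counts with DMSO, 13, 5 and 8 counts with compound 1 and 29, 22 and 41 counts with SCH772984. The SCH772984 counts of ABCG4 were the 3 highest, at a log2 fold change of 1.56 ± 0.39 (SE).

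ABCA5 and ABCA10, neighbors on chromosome 17, moved in opposite directions. ABCA8, ABCA9, ABCA6, ABCA10 and ABCA5 lie in a row on the minus strand with no other protein-coding gene between them, and ABCA10 (chr17:69147214-69244846) and ABCA5 (chr17:69244311-69327244) overlap by 536 bases. ABCA5, a late endosomal and lysosomal protein linked to cholesterol, had 1.84, 1.76 and 2.08 CPM with DMSO, 2.47, 3.33 and 2.80 CPM with compound 1 and 13.9, 13.9 and 13.7 CPM with SCH772984. This rise was the largest called among members above the floor of 3 counts in every group, at a log2 fold change of 2.85 ± 0.20 (SE; edgeR, adjusted p = 8e-17). ABCA10, its neighbor, had 12.1, 10.0 and 10.4 CPM with DMSO, 13.1, 14.1 and 16.5 CPM with compound 1 and 2.90, 2.95 and 0.80 CPM with SCH772984. It fell by 2.34 ± 0.27 on the log2 scale (SE; edgeR, adjusted p = 2.58e-08), so that the order of these neighbors turned around between DMSO and SCH772984 on the CPM per kilobase scale. ABCA8, farther along the row, had a log2 fold change of -0.63 with a 95% interval from -1.27 to 0 and was not called (edgeR, adjusted p = 0.0664), while ABCA9 and ABCA6 were too low to test. ABCA5 and ABCA10 share 318 exon bases on the same strand, 2.42% and 3.78% of their exons, so reads there cannot be assigned.

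**Figure D4:**
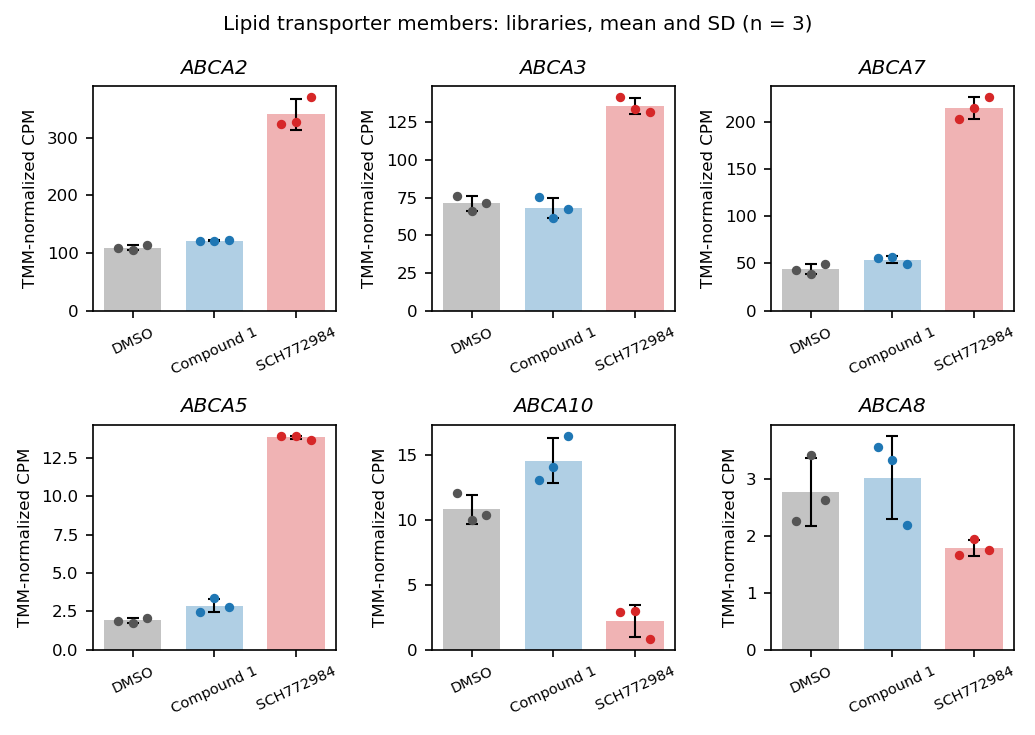
TMM-normalized CPM (vertical axes, from 0) of ABCA2, ABCA3, ABCA7, ABCA5, ABCA10 and ABCA8 in each group, with points for libraries, bars for means and whiskers for SD (n = 3). With SCH772984 ABCA5 rises to between 13.7 and 13.9 CPM and its neighbor ABCA10 falls to between 0.80 and 2.95 CPM.

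The starts of these neighbors differ in base composition, and they are shown with 3 other members that changed by different amounts with SCH772984. In the stretches shown, ABCC2 holds none of the marked motifs, and ABCF1 and ABCB6 each hold an E-box. Whether any motif bears on the changes with SCH772984 was not tested. Each sequence is the 130 bases before the outermost start of the RefSeq and GENCODE annotations, from RefSeq on GRCh38.p14, written 5′ to 3′ on the strand of the gene. Capitals mark matches, on either strand, to the E-box CACGTG, the ETS motif CCGGAAG, the AP-1 motif TGANTCA, the cyclic AMP response element TGACGTCA or the GC box GGGCGG.
ABCA5, chr17:69327245-69327374, minus strand: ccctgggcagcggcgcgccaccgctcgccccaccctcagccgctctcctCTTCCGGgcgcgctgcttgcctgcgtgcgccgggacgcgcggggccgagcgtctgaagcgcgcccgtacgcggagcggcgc
ABCA10, chr17:69244849-69244978, minus strand: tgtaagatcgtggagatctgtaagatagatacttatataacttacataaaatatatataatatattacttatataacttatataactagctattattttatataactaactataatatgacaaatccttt
ABCC2, chr10:99782510-99782639, plus strand: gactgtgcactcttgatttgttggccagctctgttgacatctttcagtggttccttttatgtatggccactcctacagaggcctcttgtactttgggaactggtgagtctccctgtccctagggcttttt
ABCB6, chr2:219219018-219219147, minus strand: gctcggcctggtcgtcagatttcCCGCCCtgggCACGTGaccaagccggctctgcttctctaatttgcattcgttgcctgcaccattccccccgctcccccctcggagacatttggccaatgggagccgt
ABCF1, chr6:30571246-30571375, plus strand: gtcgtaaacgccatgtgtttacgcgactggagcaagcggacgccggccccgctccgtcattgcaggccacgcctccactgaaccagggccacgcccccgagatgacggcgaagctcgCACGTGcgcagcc

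The 130 bases were 80.0% G or C for ABCA5 and 19.2% for ABCA10. The ETS match of ABCA5 began 81 bases before the start, and the E-box began 97 bases before the start of ABCB6 and 13 bases before that of ABCF1. Over 250 bases before the start, 34 of the 44 members had a promoter in the RefSeq table, which has none for ABCC1 or ABCC3. ABCG4 and ABCC6 are left out of the counts of higher members here. The GC box was present in 10 of the 11 higher and 3 of the 6 lower members found, against 46.2% of all 27305 genes in that table, a gene being counted where any of its promoters held the motif. The E-box was present in 3 of the 11 higher members (ABCA1, ABCB6 and ABCC10) and 1 of the 6 lower ones (ABCF1), against 7.73% of all genes. The ETS motif was found in ABCA5, ABCD4, ABCC4 and ABCF1 among called members and in 10.2% of all genes. The AP-1 motif was found in ABCA10, in another RefSeq promoter than the one printed, and in no higher member, against 8.06% of all genes. The cyclic AMP response element was found in ABCE1 and in 2.03% of all genes. The antioxidant element TGACNNNGC was present in 5 of the 11 higher members (ABCA2, ABCA3, ABCB6, ABCC10 and ABCD4) and 2 of the 6 lower ones, against 13.2% of all genes. The share of G and C in the 250 bases, which bears on how often GC-rich letters occur, had a median of 64.4% over the promoters of higher members, 66.4% over those of lower members and 58.0% over all promoters.

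Of the 4 mitochondrial members, 3 were higher with SCH772984 (75%, against 37.2% of all genes) and 1 was lower (25%, against 35.5%). Their sum stayed near its DMSO level, from between 229 and 238 CPM to between 232 and 253 CPM. ABCB6 (chr2:219209766-219219017), a porphyrin transporter, had 1.33, 1.10 and 2.08 CPM with DMSO, 1.07, 1.67 and 1.56 CPM with compound 1 and 4.40, 6.48 and 5.76 CPM with SCH772984. Its SCH772984 libraries were the 3 highest (log2 fold change 1.87 ± 0.28, SE; edgeR, adjusted p = 1.24e-07). Its value is uncertain, since 54.7% of its exon bases also belong to AC068946.2 on the same strand, a gene with 0 to 35 counts, and how reads shared by both were counted is not given in the sources used here.

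ABCB10, with the most reads of the mitochondrial members, had 125, 123 and 121 CPM with DMSO, 112, 120 and 123 CPM with compound 1 and 105, 106 and 103 CPM with SCH772984. The SCH772984 libraries were the 3 lowest, and ABCB10 fell by 0.24 ± 0.07 on the log2 scale (SE; edgeR, adjusted p = 0.00156). With scaling by library totals alone this call was lost (log2 fold change -0.06, adjusted p = 0.387). ABCB8, part of a mitochondrial potassium channel complex, rose by 0.24 ± 0.08 (SE; edgeR, adjusted p = 0.00629). ABCB8 lost its call without DMSO replicate 2 (0.19, adjusted p = 0.0646), without SCH772984 replicate 3 (0.12, adjusted p = 0.128) and after removal of a trend with gene length (0.05, adjusted p = 0.569). The share of all reads on mitochondrially encoded genes moved with treatment as well, from between 3.33% and 3.98% with DMSO and between 3.41% and 3.92% with compound 1 to between 6.23% and 7.52% with SCH772984, and its part in these values was not tested.

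Of the 2 peroxisomal members tested with SCH772984, 1 was higher (50%, against 37.2% of all genes), 0 were lower (against 35.5%) and ABCD3 was not called. ABCD3 had 84.1, 87.3 and 84.3 CPM with DMSO, 60.6, 80.4 and 73.6 CPM with compound 1 and 75.4, 86.1 and 69.6 CPM with SCH772984, where it overlapped DMSO (log2 fold change -0.15, 95% interval -0.31 to 0). Of the lysosomal members, ABCD4 had 33.2, 31.0 and 27.8 CPM with DMSO, 35, 35.3 and 34.3 CPM with compound 1 and 46.9, 52.9 and 53.1 CPM with SCH772984. It rose 1.66-fold with SCH772984 (log2 fold change 0.73 ± 0.09, SE; edgeR, adjusted p = 1.4e-09). ABCB9, a lysosomal peptide transporter, had a log2 fold change of 0.01 with a 95% interval from -0.23 to 0.24. On the other strand, AC026362.1, OGFOD2 and ARL6IP4 cover 20.7%, 12.5% and 12% of its exon bases.

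The remaining ABCC genes were nearly silent without SCH772984. ABCC8 (chr11:17392498-17476879), the sulfonylurea receptor SUR1 of the beta-cell potassium channel, had 1, 3 and 0 counts with DMSO, 1, 1 and 4 counts with compound 1 and 16, 17 and 28 counts with SCH772984. All DMSO libraries were at or below the floor of 3 counts per library. The mean SCH772984 level of ABCC8 was 4.80-fold the level of that floor, which is a description and not a confidence limit. ABCC6, a mostly hepatic and renal transporter that supports ATP release and whose loss causes pseudoxanthoma elasticum, had 2, 2 and 8 counts with DMSO, 3, 2 and 7 counts with compound 1 and 24, 26 and 33 counts with SCH772984 (log2 fold change 2.28 ± 0.46, SE). Without DMSO replicate 3, which held 8 of its counts, the value for ABCC6 was 3.24. Its near-identical pseudogene ABCC6P1 went from 0 or 1 count with DMSO to 20, 25 and 29 counts with SCH772984 and ABCC6P2 from 0 or 1 to between 6 and 21 counts, so the source of these reads is uncertain. ABCC6 lies 5.85 kb from ABCC1, on the other strand.

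Of the 4 ABCE and ABCF genes, 0 were higher (against 37.2% of all genes) and 3 were lower (75%, against 35.5%). ABCE1 (chr4:145097932-145129179) had 156, 163 and 157 CPM with DMSO, 144, 162 and 175 CPM with compound 1 and 81.8, 77.7 and 66.3 CPM with SCH772984. ABCF1 (chr6:30571376-30597179) had 178, 191 and 169 CPM with DMSO, 177, 164 and 176 CPM with compound 1 and 104, 89.9 and 87.1 CPM with SCH772984. Both genes stood apart from DMSO in every SCH772984 library, with log2 fold changes of -1.09 ± 0.07 and -0.94 ± 0.07 (SE; edgeR, adjusted p = 8.33e-18 and 5.09e-16). ABCF2 (chr7:151212490-151227230), a relative of ABCF1, had 65.8, 70.0 and 65.2 CPM with DMSO, 56.8, 46.5 and 49.5 CPM with compound 1 and 29.4, 29 and 33.3 CPM with SCH772984. The groups fell in the order DMSO, compound 1 and SCH772984 without overlap, and ABCF2 fell by 1.13 ± 0.09 on the log2 scale with SCH772984 (SE; edgeR, adjusted p = 4.93e-16). The same-strand gene AC021097.2, with 0 to 2 counts, covers 45.8% of its exon bases. Exons of OTUD4 and ANAPC10 on the other strand cover 4.41% and 7.49% of those of ABCE1. ABCF3, a ribosome-associated relative, stayed at a log2 fold change of -0.14 (95% interval -0.29 to 0.01) and was not called.

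**Figure D5:**
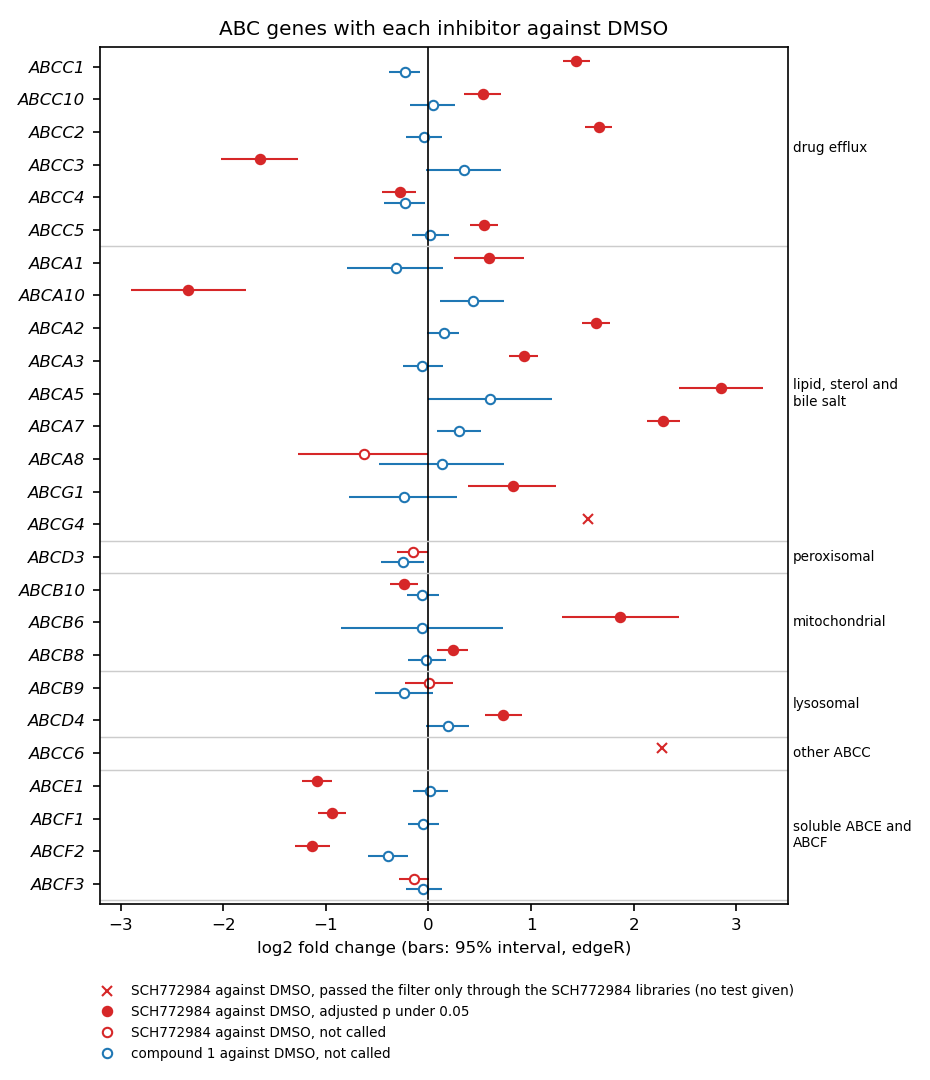
Log2 fold change against DMSO (horizontal axis) with its 95% interval for 26 of the 29 tested members, without ABCC8, by role, for SCH772984 (red) and compound 1 (blue), filled where the adjusted p was under 0.05. Crosses without an interval mark ABCG4 and ABCC6, which passed the filter only through the SCH772984 libraries. With SCH772984 the values span -2.34 (ABCA10) to 2.85 (ABCA5), and with compound 1 they span -0.39 (ABCF2) to 0.60 (ABCA5) with no filled point.

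With compound 1, no member of the 27 tested passed the adjusted threshold in edgeR, 0 higher (0.49% of all 12849 genes tested) and 0 lower (0.374% of all genes), though ABCF2 was called lower in other settings. Its adjusted p was 0.00531 in edgeR without a filter, 0.0365 with all 9 libraries in 1 fit, 0.0141 with the replicate block and 0.015 after removal of a trend with gene length, and 0.0183 in DESeq2. At an unadjusted p under 0.05, 3 members were higher, ABCA7 and ABCA10 among them (7.35% of all genes), and 4 were lower (ABCC1, ABCC4, ABCD3 and ABCF2; 7.69% of all genes). The log2 fold changes of the members ran from -0.39 to 0.60 with a median of -0.02. In the simulated data, 84.9% of genes changed by 1 on the log2 scale were called in this comparison. That change is larger than any of these, so the rate does not say how often changes of this size would be called.

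ABCF2 came nearest to the threshold, at a log2 fold change of -0.39 ± 0.09 (SE; edgeR, adjusted p = 0.0544). Every compound 1 library of ABCF2 lay below every DMSO library. ABCC1 had a log2 fold change of -0.23 (95% interval -0.38 to -0.08) with compound 1 and 1.44 (1.31 to 1.57) with SCH772984. ABCC2 had -0.04 (-0.22 to 0.13) with compound 1, an interval that does not reach its value with SCH772984. ABCC3 had 0.35 (-0.02 to 0.71) and ABCA10 0.43 (0.11 to 0.74), both falling with SCH772984 instead, and ABCA5 had 0.60 (0 to 1.20). ABCC4 had -0.23 (-0.43 to -0.03), close to its -0.28. These values share the DMSO libraries with those for SCH772984, so their likeness is not independent. Without compound 1 replicate 1, edgeR called 3 members higher, among them ABCA10 and ABCA7 (adjusted p = 0.0322 and 0.0472), and ABCB9, ABCC1 and ABCF2 lower. In that setting 3.46% of all genes were called higher and 6.1% lower.

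Compared directly, SCH772984 libraries were higher than compound 1 libraries for 17 of 30 members (33.7% of all 13863 genes tested) and lower for 7 (32.6% of all genes). Changes of at least 2-fold numbered 10 upward (16.5% of all genes) and 3 downward (10.1% of all genes). Without ABCG4, ABCC6, ABCC8 and ABCA4, which passed the filter through the libraries of 1 inhibitor alone, 14 of 26 were higher (53.8%) and 6 lower (23.1%), 7 and 3 of them by at least 2-fold. ABCC1 differed by 1.68 ± 0.08 and ABCC2 by 1.72 ± 0.09 on the log2 scale (SE; edgeR, adjusted p = 3.58e-13 and 8.81e-13). ABCC3 was lower with SCH772984 by 3.95-fold (log2 difference -1.98 ± 0.19, SE; edgeR, adjusted p = 1.69e-08) and ABCA10 by 6.75-fold (-2.76 ± 0.28, adjusted p = 7.37e-08). ABCA5 was 4.79-fold higher (2.26 ± 0.19, adjusted p = 1.64e-09). ABCF2, lower than DMSO in all libraries of both inhibitors, was lower with SCH772984 than with compound 1 by a log2 difference of -0.73 ± 0.11 (SE; edgeR, adjusted p = 5.35e-06).

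ABCC4 differed little between the inhibitors, at a log2 difference of -0.04 (95% interval -0.27 to 0.19), and was not called. ABCB10, ABCB9, ABCD3 and ABCF3 were not called either. After removal of a trend with gene length, however, ABCC4 was called lower with SCH772984. ABCA8, with 20 to 33 counts per library, was called lower with SCH772984 (edgeR, adjusted p = 0.0335), a call that was lost in most other settings. ABCA4 had 12, 11 and 16 counts with compound 1 and 7, 8 and 12 counts with SCH772984, and its value is a description with no test, since it passed the filter only through the compound 1 libraries.

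Lists of genes that work beside these transporters were also tested with SCH772984, and their counts are read against the 37.2% of all genes that were higher and the 35.5% that were lower. Of 17 genes of sterol sensing and lipoprotein handling tested, 10 were higher (58.8%) and 2 lower (11.8%, median log2 fold change 0.23). SREBF2, the main activator of cholesterol synthesis genes, rose by 1.69 ± 0.08 and NPC2, which carries cholesterol out of lysosomes, by 1.38 ± 0.07, while the sterol carrier STARD3 fell by 0.78 ± 0.08 on the log2 scale (SE). NR1H2 and NR1H3, which encode the liver X receptors, were not called (edgeR, adjusted p = 0.847 and 0.0976). Of 23 peroxisomal genes, 14 were higher (60.9%) and 2 lower (8.7%, median 0.39). Catalase (CAT) rose by 1.24 ± 0.09 and the import factor PEX6 by 1.16 ± 0.13, and ACSL4 and PEX14 fell by 0.46 ± 0.09 and 0.25 ± 0.09 on the log2 scale (SE).

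Haem and iron-sulfur cluster genes, the partners of the mitochondrial transporters, had 7 higher (28%) and 13 lower members (52%) of 25 tested (median -0.25). FDXR and PPOX rose by 1.28 ± 0.10 and 1.17 ± 0.13, and the chaperone HSPA9 fell by 1.22 ± 0.06 on the log2 scale (SE). Of 19 genes of glutathione conjugation and drug uptake, 11 were higher (57.9%) and 7 lower (36.8%, median 0.34). GSTM2, counted here, had 7 to 9 counts with DMSO and 31 to 50 with SCH772984. It passed the filter through the SCH772984 libraries and could hardly have been other than higher. The glutathione transferase GSTM3 rose by 1.53 ± 0.09 and the transporter SLC22A18 by 1.44 ± 0.15 (SE). GCLM, a subunit of the enzyme that limits glutathione synthesis, fell by 2.34 ± 0.07 and the folate carrier SLC19A1 fell by 2.00 ± 0.08 on the log2 scale (SE). The list set beside ABCE1 and the ABCF proteins mixes ribosome recycling and termination factors with genes of translation initiation and ribosome quality control. Of its 17 genes, 0 were higher and 16 lower (94.1%, median -0.77), led by EIF6 at -1.69 ± 0.07 and the initiation factor subunit EIF2S2 at -1.26 ± 0.07 (SE). With compound 1, these 5 lists held 1 called gene of 100 tested (0.49% of all genes were higher and 0.374% lower), GSTK1, which rose by 0.38 ± 0.08 on the log2 scale (SE; edgeR, adjusted p = 0.045). The medians of the 5 lists with compound 1 lay between -0.06 and 0.10.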

How the data were processed

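RNA of 9 MIA PaCa-2 libraries was sequenced by Novogene. The authors deposited raw counts of reads per gene, without normalization or a filter. The submitters' processing notes name HISAT2 2.0.5, featureCounts 1.5.0-p3 and hg38, and the strand setting and annotation are not given in the sources used here. All 58735 gene identifiers and coordinates matched GENCODE 29, which was used for positions and exon lengths. Without a known strand setting, members sharing exon bases with another gene (16 of 44) are uncertain.

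Counts were fitted with edgeR 4.0.16 (robust quasi-likelihood test, TMM, filterByExpr with minimum count 10 and minimum total 15) in R 4.3.3, in 1 fit per comparison of 3 against 3 libraries, with Benjamini-Hochberg adjustment over all tested genes. Standard errors were computed from the fold change and its F statistic. Counts were simulated with a log2 change of 1 in 198 of 13506 genes (SCH772984) and 199 of 12681 genes (compound 1). The fit called 84.8% and 84.9% of these changed genes. Far fewer genes were changed there than were called with SCH772984 in the data, so that rate need not hold for it. Alternatives were RLE factors, library totals alone, no filter, a joint fit of all 9 libraries, a minimum of 10 counts per library, the replicate number as a block, DESeq2 1.42.0, protein-coding genes only, removal of a trend with gene length, an unadjusted p, a 2-fold change, and leaving out each library.

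The members, roles and related lists were chosen with earlier results of these data known, so they carry no independent support. Values per library are given for members called with SCH772984 at 2-fold or more, the member with the highest level per kilobase in each role, and members at or below 3 counts in all libraries of a group but with at least 10 in every library of another. From each related list at most 2 rises and 2 falls are named, the largest among called genes with a mean of at least 5 CPM. Some genes of the family and of the related lists are not reported here, though counts and sums over the 44 genes include those of the 44. RefSeq promoters were on GRCh38.p14 and no protein sequences were used here. Figures were drawn with matplotlib 3.10.9.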

Additional observations from a re-analysis of the deposited data

How the results depend on the processing

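Of the 25 members called with SCH772984 against DMSO, 22 kept their call and direction in every setting in which they were tested, apart from the 2-fold threshold, which left 9 higher and 4 lower. Without ABCC8, ABCC6 and ABCG4, which passed the filter only through the SCH772984 libraries and could not be tested with at least 10 counts in every library, 19 of 22 did. The exceptions were ABCB10, ABCC4 and ABCB8. Scaling by library totals moved the median of all genes from 0.03 to 0.20 and turned ABCF3 and ABCD3, both not called, to 0.03 and 0.02. Members not called gained a call downward elsewhere: ABCF3 and ABCD3 without a filter (adjusted p = 0.0453 and 0.036), ABCF3, ABCD3 and ABCA8 after removal of the length trend (0.00203, 0.000195 and 0.013), ABCF3 without DMSO replicate 3 or SCH772984 replicate 1, ABCD3 without SCH772984 replicate 2, and ABCA8 without DMSO replicate 1. ABCB9, near 0, was at -0.03 without a filter, 0 with the replicate block, -0.24 after removal of the length trend and between -0.08 and 0.09 with a library left out. With compound 1, ABCF2 was the 1 member called, and lower, without a filter, with all 9 libraries, with the replicate block, with DESeq2 and after removal of the length trend (adjusted p between 0.00531 and 0.0365). Leaving out a library gave 0 to 3 higher and 0 to 3 lower, and an unadjusted p gave 3 and 4. ABCC2 ranged from -0.12 to 0.01 with compound 1 when a library was left out. Between the inhibitors, 21 of 24 called members kept their call wherever they were tested, apart from the 2-fold threshold (10 higher, 3 lower), the exceptions being ABCA4, ABCA8 and ABCB8, and 18 of 20 did without ABCC8, ABCC6, ABCG4 and ABCA4. ABCC4, not called there, was 0.10 with library totals, 0.04 with at least 10 counts in every library and between -0.13 and 0.06 with a library left out. After removal of the length trend, ABCC4 was called lower with SCH772984 than with compound 1. The causes of these shifts were not tested.

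Deviations of same-numbered libraries from their group means had correlations with DMSO of 0.0179, -0.00627 and 0.0427 for SCH772984. For compound 1 they were 0.139, -0.0184 and 0.0146 with DMSO, and between the inhibitors they were -0.075, 0.155 and -0.103. The labels do not say whether libraries of the same number were handled together, and these values cannot decide it. The replicate block left 18 higher and 7 lower members with SCH772984, 0 higher and 1 lower with compound 1, and 17 higher and 5 lower between the inhibitors. Members with few counts, such as ABCC8, ABCC6, ABCG4, ABCA4 and ABCB6, have wide intervals, and changes in the 14 members too low to test were not detectable at this depth.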
